A study of Homo sapiens with 24 samples.

Results

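RNA sequencing of PEO4 cells exposed to pyridostatin (PDS) was compared between 6 h and 2 h of exposure, with 3 libraries at each time. The comparison was chosen by the columns of 1 count table that the sample labels give as PEO4 treated for 2 or 6 h, so it takes 6 of the 24 samples of the series, and it covers every gene of the table. Of 28277 genes, 17020 had enough counts to be tested. PEO4 is an established human ovarian adenocarcinoma line, which the labels give as genotype WT, and the design text describes as BRCA2-positive. By the labels, both groups had the same medium with 5 µM PDS and differed in the hours of exposure. The same table holds 3 untreated PEO4 libraries and 9 libraries of a PEO1 line, labelled BRCA2+ and called PEO1 BRCA+ here, in which the study describes a spontaneous reversion mutation that gave BRCA2 function back, at the same 3 conditions. The untreated cells carry no collection time in the labels, so hours in culture and hours in PDS cannot be told apart. The 3 samples of a group are described as biological replicates. A p-value of the gene test rests on the spread between replicates over all 18 libraries of the table, from both lines. It says nothing beyond these samples of these lines.

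G-quadruplexes (G4s) are folded structures that G-rich DNA or RNA can form when runs of guanine stack on each other in planar tetrads. PDS is a small molecule that binds and stabilises them, and it is known to stall polymerases and to cause DNA breaks near G4-forming sequence. Cells answer a new stress in waves: short-lived messages of immediate early genes move first, followed by regulated sets such as the heat shock, interferon and growth genes. A comparison of 2 drug times shows how the message pool moved between them, and not how it moved from the untreated state.

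The libraries were of like depth at both times. Counts on genes summed to 36758056, 35633786 and 43156993 at 2 h and to 43713947, 34119767 and 35020126 at 6 h. Levels are given as CPM, the depth-scaled counts of the field, with TMM scaling, which sets the libraries to a common level for most genes, so a value is always a share of the messages in the library. Within these bulk samples, fewer cells with a message and less of that message per cell cannot be told apart. The first principal component of the 6 libraries held 93.0% of the variance over the 1000 most variable genes and separated the times. The 2 h libraries lay at -25.8, -36.2 and -19.7 on it, and the 6 h libraries at 28.3, 27.6 and 25.8. The 6 h libraries were thus closer to each other than the 2 h libraries, among which replicate 2 stood apart. Replicate 2 at 2 h is followed through the results for this reason. No pair of replicates was as alike as sampling noise would make a library sequenced again.

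Between 2 and 6 h of PDS, expression changed widely in PEO4 cells, and more genes fell than rose. A gene was called where edgeR's quasi-likelihood test gave a Benjamini-Hochberg adjusted p under 0.05 and the log2 fold change, 6 h over 2 h, was beyond 1 in size, which is a change of more than 2-fold. By this rule 387 genes rose (2.27% of those tested) and 1652 fell (9.71%), together 2039 (12%). Genes that fell made up 81.0% of the called genes. Among them 422 fell by more than 2 on the log2 scale, while 35 rose by more than 2. The imbalance was in the larger changes: without the fold threshold 4915 genes (28.9%) were higher and 5322 (31.3%) lower, together 10237 (60.1%). The median log2 fold change of all tested genes was -0.02. The 3 libraries of one time lay wholly above or below those of the other for 11580 genes (68.0%), and for 380 of the genes that rose and 1611 of those that fell. Without replicate 2 of the 2 h group, 358 genes rose and 1370 fell, with 298 and 1328 of the same genes among them and no change of sign.

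**Figure D1:**
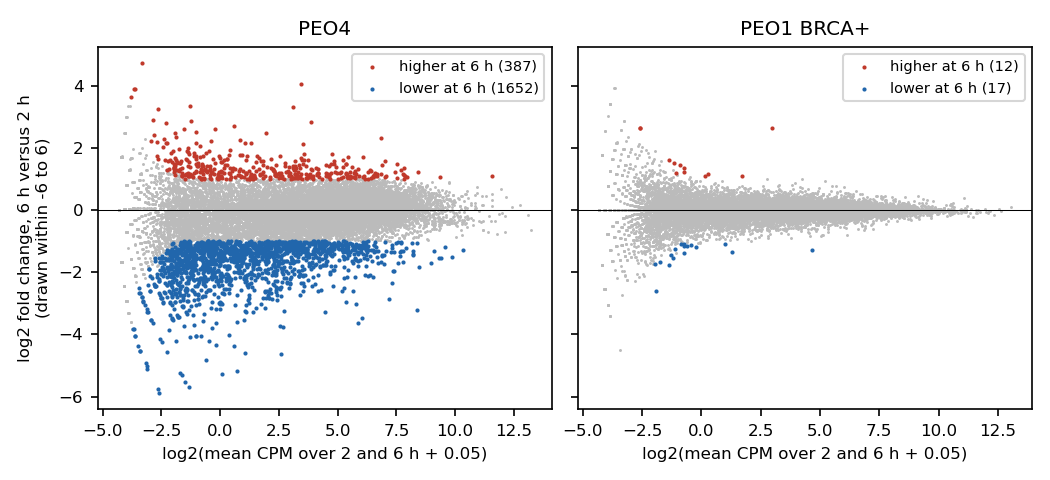
Log2 fold change (6 h over 2 h of PDS, PEO4) of each of the 17020 tested genes against its mean log2 CPM over the libraries, with called genes coloured by direction. The 1652 genes that fell lie mostly toward the left, at lower levels, and outnumber the 387 that rose.

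The genes that rose most, among those whose mean log2 CPM reached 3 and whose 2 h and 6 h values did not overlap, were NEGR1, CHORDC1, NAV3, EPHB1, SEMA3C, DUSP7, KRT6A, RFTN1, LRRN4 and PHF23. NEGR1 (chr1:71395943-72282539, GRCh38 as in RefSeq, like all positions here) encodes a cell adhesion molecule of the immunoglobulin family, best known from neurons. It stood at 3.92, 2.89 and 3.86 CPM at 2 h and at 24.8, 27.4 and 25 CPM at 6 h, a log2 fold change of 2.85 (SE 0.3, n = 3 against 3, adjusted p = 2.4e-06 by the same edgeR test, as for every adjusted p below). All 6 h libraries were far above all 2 h libraries, and the untreated libraries were as low as those at 2 h in 2 of 3 cases. CHORDC1 (chr11:90200429-90223049) encodes a co-chaperone that binds HSP90. Its level was 37.6, 33.7 and 42.7 CPM at 2 h and 183, 188 and 198 CPM at 6 h, with a log2 fold change of 2.32 (SE 0.11, adjusted p = 3.9e-11). The untreated libraries held 72, 64.2 and 60.9 CPM, between the levels of the treated times. NAV3, a microtubule-associated protein, went from 3.72, 2.52 and 6.46 CPM to 20.5, 18.2 and 17.8 CPM (log2 fold change 2.14, SE 0.27, adjusted p = 1.3e-05).

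EPHB1 is a receptor tyrosine kinase for ephrin-B ligands, and SEMA3C is a secreted semaphorin; both kinds of protein guide cell movement. EPHB1 (chr3:134795260-135260467) rose from 4.94, 4.3 and 6.31 CPM to 18.5, 17.9 and 18.1 CPM, by 1.8 on the log2 scale (SE 0.17, adjusted p = 3.7e-08). SEMA3C (chr7:80742538-80922389) rose from 14, 9.37 and 13.4 CPM to 41.6, 43.8 and 42.7 CPM, also by 1.8 (SE 0.13, adjusted p = 3.4e-09). For SEMA3C the 6 h values were within the range of the untreated ones, 51.3, 38.8 and 37.7 CPM, while the 2 h values were below all of them. DUSP7 (chr3:52048919-52056571), a phosphatase that inactivates ERK kinases, had little spread at either time, with 34.4, 30.2 and 29.3 CPM at 2 h and 101, 104 and 103 CPM at 6 h (log2 fold change 1.72, SE 0.07, adjusted p = 6.2e-15). PHF23, a PHD finger protein whose gene overlaps GABARAP, went from 17.8, 18.9 and 18.5 CPM to 57.5, 55.6 and 57.6 CPM (log2 fold change 1.63, SE 0.07). KRT6A, a stress-induced keratin with close paralogs among which reads can be shared, went from 21.9, 15.9 and 22.7 CPM to 66.9, 67 and 63.4 CPM (log2 fold change 1.7, SE 0.28). RFTN1, which overlaps OXNAD1, and LRRN4 completed the 10, with log2 fold changes of 1.68 and 1.63. Leaving out replicate 2 at 2 h kept all 10 called, with log2 fold changes from 1.43 (LRRN4) to 2.73 (NEGR1).

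The 10 genes that fell most by the same rule were DHRS2, DEPTOR, IGFBP5, CCN2, GREB1, KRT15, KCNF1, ADAMTS2, SEMA3A and GBP1, with log2 fold changes from -3.64 to -2.59, where those of the 10 that rose went from 1.63 to 2.85. DHRS2 (chr14:23630115-23645639) encodes a short-chain dehydrogenase of mitochondria and nucleus. It stood at 101, 144 and 80.8 CPM at 2 h and at 7.01, 7.93 and 11.3 CPM at 6 h, so that it fell by 3.64 on the log2 scale (SE 0.21, adjusted p = 5.2e-09). Replicate 2 was the highest of the 2 h libraries, and the untreated libraries, at 6.62, 5.07 and 7.69 CPM, were as low as those at 6 h. DEPTOR encodes an inhibitory partner of the mTOR kinase. It fell by 3.46 (SE 0.17, adjusted p = 2.8e-10), from 118, 137 and 101 CPM to 10.6, 10.8 and 11 CPM. Untreated cells had 1.47, 3.92 and 1.61 CPM, below both treated times. IGFBP5 (chr2:216672105-216695549), a secreted protein that binds insulin-like growth factors, went from 37.9, 53.7 and 28 CPM to 3.41, 3.69 and 5.3 CPM (log2 fold change -3.28, SE 0.43, adjusted p = 2.4e-05).

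CCN2 (chr6:131948176-131951372), a matricellular protein also known as connective tissue growth factor, was the most abundant of the 10 at 2 h. Its level was 583, 664 and 572 CPM at 2 h and 63.2, 70.1 and 61.9 CPM at 6 h, and it fell by 3.22 on the log2 scale (SE 0.31, adjusted p = 1.3e-06). The untreated libraries, at 121, 102 and 42 CPM, spanned the 6 h values. GREB1 (chr2:11482888-11642788), a cofactor and target of the estrogen receptor, went from 89.6, 131 and 77.2 CPM to 12.2, 11.9 and 12.4 CPM (log2 fold change -3.03, SE 0.26, adjusted p = 3.7e-07). KCNF1, a modulatory potassium channel subunit, went from 252, 305 and 215 CPM to 32, 33.6 and 40.6 CPM (log2 fold change -2.86, SE 0.25). KRT15, a keratin of basal epithelial cells, went from 65, 101 and 53.6 CPM to 9.73, 8.97 and 9.76 CPM (log2 fold change -2.94, SE 0.23). SEMA3A (chr7:83955777-84492725), a secreted semaphorin like SEMA3C, moved the opposite way to it, from 31.3, 36.2 and 25.7 CPM to 4.53, 4.85 and 5.96 CPM (log2 fold change -2.61, SE 0.12, adjusted p = 4.4e-14). It differed from most of the 10 in its untreated level of 41.1, 38.4 and 36.5 CPM, which was above that at 2 h in every library. ADAMTS2, a procollagen protease, fell with a log2 fold change of -2.61, and GBP1, an interferon-induced GTPase, with -2.59. Without replicate 2 at 2 h all 10 were still called, with log2 fold changes from -3.38 (DHRS2) to -2.40 (GBP1).

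**Figure D2:**
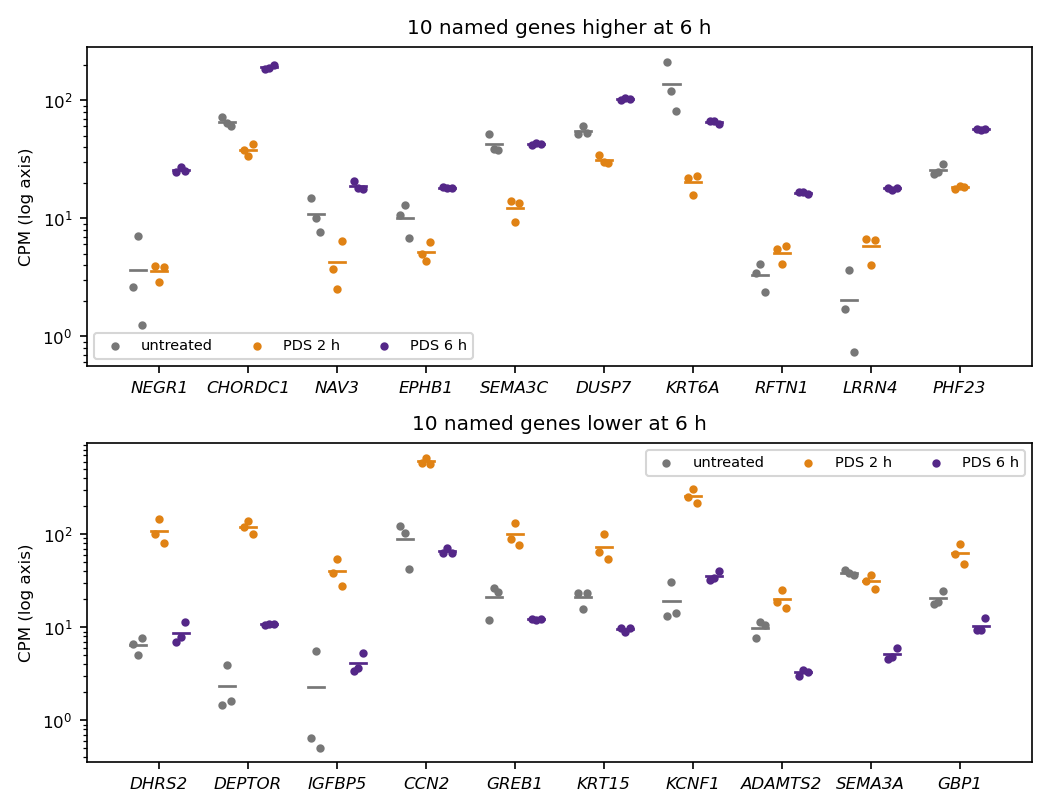
CPM (log axis) of the 10 genes that rose most and the 10 that fell most, 1 point per PEO4 library, at 0 h (untreated), 2 h and 6 h of PDS. The 2 h and 6 h points of each gene do not overlap, and DHRS2, DEPTOR and IGFBP5 are high at 2 h alone.

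Some genes outside this rule, chosen after their values were seen, give the reach of the changes. MARCHF4, a membrane E3 ubiquitin ligase with a mean level below the one asked for, went from 1.42, 0.623 and 1.58 CPM to 22, 20.6 and 19.4 CPM, a log2 fold change of 4.07 (SE 0.19, adjusted p = 1.3e-11). ESM1, a secreted proteoglycan, went from 1.31, 0.538 and 2.71 CPM to 17.1, 15.6 and 14.5 CPM (log2 fold change 3.33, SE 0.32). Both were barely present at 2 h and plainly present at 6 h. Among highly expressed genes, PLEC, which encodes the cytoskeletal linker plectin, rose from 1911, 1654 and 2263 CPM to 4037, 4032 and 4414 CPM (log2 fold change 1.1, SE 0.14), and missed the fold threshold without replicate 2 at 2 h. UCA1, a long non-coding RNA known from carcinomas, went from 1092, 1098 and 999 CPM to 471, 467 and 474 CPM (log2 fold change -1.18, SE 0.11). MALAT1, an abundant nuclear long non-coding RNA whose locus overlaps the antisense TALAM1, went from 714, 1534 and 755 CPM to 376, 315 and 346 CPM. The high 2 h value was that of replicate 2, and the log2 fold change of MALAT1 was -1.53 with it and -1.08 without it.

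Hand-written lists of genes describe what kinds of genes moved. A list's count of called members reads against the share called among all tested genes, 2.27% for higher and 9.71% for lower, and its median log2 fold change, where one is given, against the overall median of -0.02. These shares are not matched to the level of a list's members. The share lower was 22.4% in the fifth of tested genes with the lowest level and 1.67% in the highest. The part of level in a list's count was not tested.

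Heat shock chaperones fold other proteins, and their genes are driven by heat shock factors that bind repeats of the element nGAAn. Of 27 tested members 4 rose and none fell, 21 were higher and 5 lower by adjusted p alone, and the median log2 fold change was 0.63. HSPH1, an HSP110 family chaperone, stood at 104, 82.8 and 106 CPM at 2 h and 273, 278 and 277 CPM at 6 h, a log2 fold change of 1.5 (SE 0.13, adjusted p = 1.0e-07). HSPA4L, of the same family, went from 8.64, 7.36 and 9.7 CPM to 21.3, 21.1 and 20.7 CPM (log2 fold change 1.29, SE 0.1). Neither overlapped between the times, and both had less spread at 6 h. HSPA1B, a stress-inducible HSP70, went from 2.44, 2.29 and 2.35 CPM to 4.84, 4.97 and 5.45 CPM (log2 fold change 1.1, SE 0.15, adjusted p = 1.1e-06), but it has a near-identical copy, HSPA1A, with which reads can be shared, so the value holds for the pair at best. CHORDC1, given above, was the fourth. The most abundant chaperones passed the adjusted p but not the fold threshold. HSP90AA1 went from 3089.8, 2597 and 3427 CPM to 4950.1, 4955 and 4835 CPM (log2 fold change 0.69), HSPA8 from 1475, 1384 and 1517 CPM to 2428, 2499 and 2494 CPM (log2 fold change 0.76), and DNAJA1 had a log2 fold change of 0.8. HSPA5, the HSP70 of the endoplasmic reticulum and a member of the unfolded protein response list, had 0.02. None of the 20 tested genes of that list was called in either direction (7 higher and 6 lower by adjusted p alone).

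The promoters of CHORDC1 and HSPA1B are shown because both genes rose and both windows hold the letters of a heat shock element. The RefSeq windows (GRCh38.p14) are printed for the 250 bases before the gene start, on the strand of the gene, with GAANNTTC or TTCNNGAA, searched on both strands, in capitals.
CHORDC1, chr11:90223050-90223299, minus strand: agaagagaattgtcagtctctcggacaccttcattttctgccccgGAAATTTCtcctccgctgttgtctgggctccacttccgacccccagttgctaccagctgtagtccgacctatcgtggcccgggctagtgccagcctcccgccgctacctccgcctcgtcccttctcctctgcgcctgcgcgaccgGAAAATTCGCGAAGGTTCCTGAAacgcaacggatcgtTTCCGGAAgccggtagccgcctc
HSPA1B, chr6:31827488-31827737, plus strand: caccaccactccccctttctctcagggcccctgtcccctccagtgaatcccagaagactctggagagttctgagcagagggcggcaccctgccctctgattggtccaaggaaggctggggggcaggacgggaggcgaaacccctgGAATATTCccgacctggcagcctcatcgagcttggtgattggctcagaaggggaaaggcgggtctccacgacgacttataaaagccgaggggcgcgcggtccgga
CHORDC1 had 6 overlapping or separate matches and HSPA1B had 1. In the window of 300 bases, which takes in 50 after the start, 10 of the 15 list members with a window held the letters, against 9.86% of 8226 tested protein-coding genes and 13.5% of all 35116 windows. HSPH1 rose and its window held no match, so the letters and the change did not go together in every member. Over all tested protein-coding genes with a window, 2.34% of 811 genes with the letters rose and 10.1% fell. Of the 7415 without, 1.75% rose and 8.28% fell.

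Interferon response genes encode antiviral effectors and the factors STAT2 and IRF9 that help drive them through the interferon-stimulated response element. Of 34 tested members 17 fell and none rose, 33 were lower by adjusted p alone, and the median log2 fold change was -1.04. Without replicate 2 at 2 h, 18 fell and the median was -1.02. IRF9, the DNA-binding part of the interferon-activated complex, stood at 68.1, 75.5 and 59.7 CPM at 2 h and 17.3, 18.2 and 18 CPM at 6 h, and fell by 1.93 on the log2 scale (SE 0.1, adjusted p = 4.6e-13). All 6 h values were far under all 2 h values, which in turn were under the untreated ones of 84.4, 91 and 106 CPM. IFI44L went from 3.75, 4.44 and 3.46 CPM to 0.429, 0.885 and 0.958 CPM (log2 fold change -2.39, SE 0.39, adjusted p = 7.7e-05), and XAF1, an interferon-induced promoter of apoptosis, from 11.7, 16.2 and 11.8 CPM to 2.5, 2.99 and 3.44 CPM (log2 fold change -2.16, SE 0.32). Among abundant members, the ubiquitin-like ISG15 went from 397, 476 and 391 CPM to 148, 172 and 193 CPM (log2 fold change -1.3, SE 0.16), and the antiviral GTPase MX1 from 80.4, 76.1 and 75.1 CPM to 18.6, 22.7 and 30.6 CPM (log2 fold change -1.69, SE 0.25). IFI6, a mitochondrial antiviral protein, went from 77.7, 94.6 and 68.3 CPM to 19.1, 26.6 and 36.1 CPM (log2 fold change -1.56, SE 0.3), and was lowest in replicate 1 at 6 h. BST2, which tethers budding virus, fell by 1.77 on the log2 scale. Guanylate-binding proteins, a family looked at after GBP1 was seen, had 4 of 5 tested members called lower (GBP1, GBP2, GBP4 and GBP5), and GBP2 went from 10.4, 18.8 and 6.7 CPM to 0.644, 0.915 and 1.11 CPM.

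Promoters of ISG15, IFI6, IFI44L and BST2 are shown because these genes fell and hold the letters GAAANNGAA (both strands, in capitals) of the response element in the 250 bases before the start.
ISG15, chr1:1013247-1013496, plus strand: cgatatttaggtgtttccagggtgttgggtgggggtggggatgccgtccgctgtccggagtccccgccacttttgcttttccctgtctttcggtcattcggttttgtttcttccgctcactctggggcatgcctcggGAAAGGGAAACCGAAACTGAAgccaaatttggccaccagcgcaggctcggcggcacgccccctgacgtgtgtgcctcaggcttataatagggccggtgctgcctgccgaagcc
IFI6, chr1:27672193-27672442, minus strand: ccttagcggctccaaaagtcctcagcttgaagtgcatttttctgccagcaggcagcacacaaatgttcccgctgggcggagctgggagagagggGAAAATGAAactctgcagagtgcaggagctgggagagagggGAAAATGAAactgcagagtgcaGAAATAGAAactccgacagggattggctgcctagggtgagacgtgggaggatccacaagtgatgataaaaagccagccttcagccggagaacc
IFI44L, chr1:78620198-78620447, plus strand: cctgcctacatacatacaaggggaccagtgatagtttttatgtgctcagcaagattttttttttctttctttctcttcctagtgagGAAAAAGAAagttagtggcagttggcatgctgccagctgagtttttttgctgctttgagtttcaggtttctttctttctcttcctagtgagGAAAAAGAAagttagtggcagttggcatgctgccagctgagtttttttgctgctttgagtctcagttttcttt
BST2, chr19:17405631-17405880, minus strand: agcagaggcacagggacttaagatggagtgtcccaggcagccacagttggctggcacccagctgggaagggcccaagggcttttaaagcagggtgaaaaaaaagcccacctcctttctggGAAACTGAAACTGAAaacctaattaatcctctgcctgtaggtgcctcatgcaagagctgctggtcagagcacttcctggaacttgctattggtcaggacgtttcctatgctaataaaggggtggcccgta
Matches numbered 3 for ISG15 and IFI6 and 2 for IFI44L and BST2. In the 300-base window, 13 of the 20 list members with a window held the letters, among them 8 of the 10 that fell, against 6.29% of the 8226 tested protein-coding genes and 8.11% of all windows. Over all tested protein-coding genes with a window, 9.28% of 517 genes with the letters fell and 8.41% of 7709 without.

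Of 30 tested immediate early genes, whose short-lived messages answer growth factors and stress within minutes, 10 fell and none rose (15 lower and 2 higher by adjusted p alone), with a median log2 fold change of -0.54, or -0.39 without replicate 2 at 2 h. The nuclear receptor NR4A3 went from 9, 13.3 and 6.02 CPM to 1.36, 0.915 and 1.53 CPM (log2 fold change -2.88, SE 0.25, adjusted p = 3.5e-09), and its relative NR4A1 from 115, 157 and 81.1 CPM to 25.9, 28.3 and 28.7 CPM (log2 fold change -2.09, SE 0.32). The zinc finger factor EGR3 went from 1.64, 2.46 and 1.37 CPM to 0.286, 0.244 and 0.12 CPM (log2 fold change -3.01, SE 0.32). The other 7 that fell were EGR2, NR4A2, ATF3, KLF4, MAFF, CCN1 and CCN2. Among the members that were not called, FOS stood at 16.6, 25.3 and 12.7 CPM and 13.1, 17.6 and 6.53 CPM and EGR1 at 37.7, 56.8 and 38.5 CPM and 48.9, 56.4 and 39.8 CPM, each with overlap between the times (adjusted p = 0.46 and 0.76), while both were higher in the untreated libraries, at 412, 238 and 75.8 CPM for FOS. FOSL1, a slower member of the FOS family, had a log2 fold change of 0.79 (SE 0.25), past the adjusted p only. MYC, whose promoter holds a much-studied G4, stood at 290.4, 282 and 286 CPM and 264, 261 and 277 CPM (log2 fold change -0.1, SE 0.05, adjusted p = 0.12).

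Targets of YAP and TEAD, the factors of the Hippo pathway, moved both ways, with 4 of 24 higher and 3 lower. CCN2, ANKRD1 and CCN1, which are secreted or sarcomeric early targets, fell, and CCN1 went from 722, 826 and 732 CPM to 225, 230.1 and 248 CPM (log2 fold change -1.7, SE 0.18). AJUBA, a LIM protein that restrains the LATS kinases, rose from 122, 129.8 and 113 CPM to 281, 293 and 314 CPM (log2 fold change 1.29, SE 0.07), and the receptor kinase AXL rose by 1.17. Of the other 2, FOXF2 was at 0 to 5 counts in these libraries and lost its call under several alternatives, and TGFB2, at under 1 CPM, lost it without replicate 2 at 2 h. Among 20 MAPK feedback genes, DUSP7 rose and DUSP8 and SPRED3 fell, and DUSP8, at under 2 CPM, was not called without replicate 2 at 2 h. Of 28 WNT ligands and receptors none rose and 2 fell (1 to 3 with 1 library left out), among them WNT11, from 32, 41.3 and 28.9 CPM to 8.99, 11 and 9.88 CPM (log2 fold change -1.78). Of 19 WNT feedback genes SP5 rose and AXIN2, APCDD1 and PRICKLE2 fell, and each of these calls was lost without 1 library, SP5 without replicate 1 at 2 h, APCDD1 and PRICKLE2 without replicate 1 at 6 h, and AXIN2 without replicate 2 at 2 h or replicate 2 or 3 at 6 h. In the Notch pathway 4 of 21 fell and none rose, with MAML2, a coactivator, going from 10.8, 13.3 and 8.23 CPM to 2.65, 2.14 and 2.3 CPM (log2 fold change -2.17). Among 22 NF-kB targets CXCL5 rose and ICAM1, NFKBIA and TNFAIP2 fell, with log2 fold changes of -1.11, -1.04 and -1.03. NFKBIA and TNFAIP2 were just under the fold threshold without replicate 2 at 2 h, at -0.98 and -0.93. Of 28 p53 targets 1 fell and none rose, and CDKN1A, the canonical member, stood at 17.9, 20.2 and 17.9 CPM and 16.3, 17.6 and 16 CPM (adjusted p = 0.28).

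In the integrated stress response list 4 of 29 fell and none rose, among them NUPR1, ATF3 and ALDH1L2 with log2 fold changes of -2.45, -1.63 and -1.2. ATF3, an early stress factor, went from 14.2, 17.1 and 13.6 CPM to 4.27, 4.97 and 5.27 CPM. Of 20 hypoxia and glucose-sensing genes 3 fell. NDRG1, a stress-responsive gene, stood at 569, 574 and 518 CPM and 167, 148 and 151 CPM (log2 fold change -1.83, SE 0.09, adjusted p = 1.2e-12), and the others were CA9 and PFKFB4. Circadian clock genes had 5 of 19 lower, none higher, and 15 lower by adjusted p alone, with a median of -0.79. The clock activator ARNTL (BMAL1) went from 13.7, 10.9 and 11.7 CPM to 4.36, 4.52 and 3.77 CPM (log2 fold change -1.52, SE 0.13), the repressor PER1 from 14.8, 15.8 and 13.1 CPM to 5.72, 5.68 and 5.18 CPM (log2 fold change -1.39, SE 0.12), and the output factor DBP from 31.6, 47 and 25.7 CPM to 10.9, 11.3 and 10.9 CPM (log2 fold change -1.66, SE 0.17). CLOCK and CRY1 went the other way without reaching the fold threshold, with 0.58 and 0.54. Of 26 cholesterol synthesis genes 3 fell, STARD4 and SREBF2 among them, and the sterol-sensing factor SREBF2 went from 98.3, 98.6 and 91.6 CPM to 39.6, 39.1 and 44.9 CPM (log2 fold change -1.22). OSGIN1 and the transporter ABCC3 fell among 22 NRF2 genes. In the mTOR list DEPTOR, SESN3 and RRAGD fell and none of 31 rose, and SESN3 was not called without replicate 2 at 2 h (-0.98). Of 21 KLF and SP factors SP5 rose and 4 fell, among them KLF7 and KLF4, with log2 fold changes of -1.81 and -1.3. Of 32 apoptosis regulators 1 rose and 2 fell (1 to 2 and 2 to 3 with 1 library left out). BCL2, the anti-apoptotic founder of its family, rose from 2, 1.64 and 2.76 CPM to 6.3, 5.34 and 5.27 CPM (log2 fold change 1.39, SE 0.17). Those that fell were near the limit of detection, BCL2A1, an anti-apoptotic relative, at 10 to 13 counts a library at 2 h and 0 to 1 at 6 h, and CASP10, an initiator caspase, at 5 to 10 and then 1 to 2.

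Genes that build ribosomes and genes that encode ribosomal proteins lay on opposite sides of the overall median. Of 50 tested genes of ribosome biogenesis and RNA polymerase I, 3 rose (5 without replicate 3 at 2 h) and none fell, 40 were higher and 4 lower by adjusted p alone, and the median log2 fold change was 0.51. UTP20, of the small subunit processome, went from 58.8, 47.1 and 68.4 CPM to 132, 134 and 137 CPM (log2 fold change 1.21, SE 0.1), and POP1, of RNase P and MRP, from 50.5, 44.4 and 57.6 CPM to 117, 117 and 128 CPM (log2 fold change 1.25, SE 0.07). POLR1B, a catalytic subunit of RNA polymerase I, went from 40.4, 31.1 and 41.3 CPM to 79.97, 81.1 and 83.6 CPM (log2 fold change 1.11, SE 0.07), and was just under the fold threshold without replicate 2 at 2 h. FBL, the methyltransferase of box C/D particles, stood at 383, 362 and 399 CPM and 374, 371 and 406 CPM (adjusted p = 0.91). TCOF1, a nucleolar factor outside the list, rose by 1.23. None of the 81 tested ribosomal protein genes was called, but 71 were lower and 4 higher by adjusted p alone, with a median of -0.34. RPL13A had 3121, 3705 and 3201 CPM at 2 h and 2002, 2024 and 2116 CPM at 6 h (log2 fold change -0.71). Together these genes took 7.62% ± 0.347 of all counts at 2 h and 5.97% ± 0.0434 at 6 h (SD, n = 3 each; exact permutation test, two-sided, p = 0.1, the smallest that 3 against 3 can give). Nuclear genes of oxidative phosphorylation had 42 of 79 lower by adjusted p alone and 1 called lower.

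Proteasome, CCT chaperonin, nucleoporin and cytosolic aminoacyl-tRNA synthetase genes were picked after their values were seen. They had few called members but many that were higher by adjusted p alone. That threshold was passed upward by 28.9% and downward by 31.3% of all tested genes. Proteasome subunits had 26 of 35 higher and 3 lower by adjusted p alone, with PSMD2, a base subunit, called, from 452, 331 and 496 CPM to 907, 914 and 872 CPM (log2 fold change 1.07, or 0.92 without replicate 2 at 2 h). By the same threshold the CCT chaperonin had 8 of 9 subunits higher and 1 lower, nucleoporins 19 of 21 higher and none lower, and cytosolic aminoacyl-tRNA synthetases 12 of 19 higher and 5 lower. Other families leaned the other way by adjusted p alone. Lysosomal cathepsins (CTS) had 4 of 12 called lower, with 3 higher and 7 lower by adjusted p alone. RAB GTPases had 13 of 57 higher and 25 lower by adjusted p alone, with a median of -0.09. Their 5 genes called lower were close to the share of 9.71% among all tested genes.

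RNA processing and transcription lists were mixed. Of 23 SR proteins and CLK kinases, the kinase CLK4 rose from 5.5, 5.69 and 5.38 CPM to 12.3, 12.8 and 12 CPM (log2 fold change 1.16, SE 0.11), while the splicing factors SRSF6 and SRSF5 fell. SRSF6 went from 426, 429 and 428 CPM to 158, 149 and 159.8 CPM (log2 fold change -1.46, SE 0.07, adjusted p = 7.8e-14), with almost no spread at either time. SRSF5 went from 280.4, 309 and 291 CPM to 106, 104 and 106 CPM (log2 fold change -1.48, SE 0.1). None of 32 genes of P-TEFb, 7SK and elongation was called by edgeR, and by adjusted p alone 17 were higher and 4 lower. The methods give polyA enrichment for the RNA libraries, and histone, small nucleolar and microRNA loci, whose products mostly lack a polyA tail, are reported as counted. Replication-dependent histone genes had 6 of 38 higher and none lower (6 and 1 without replicate 2 at 2 h), the 6 all under 1 CPM. Small nucleolar and nuclear RNA genes had 9 of 197 higher and 3 lower and a median of 0.24. Without replicate 2 at 2 h they were 11 higher and 1 lower, with SNORA59A and SNORA59B no longer called, and leaving out any 1 of the 6 libraries gave 7 to 14 higher and 1 to 3 lower. Their share of counts went from 0.611% to 0.413%. In that share SNORD141A and SNORD141B, listed with identical counts, held 45.1% of the class each at 2 h and went from 2816 to 1821 CPM each. microRNA genes, counted here at their genomic loci and not as mature RNA, had 23 of 312 higher and 17 lower.

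Genes that act on G4s or repair DNA changed little in size. Of 29 G4 helicases and binding proteins none was called by the fold threshold, while 14 were higher and 4 lower by adjusted p alone, with a median of 0.13. Nucleolin, NCL, which binds G4s, stood at 1585, 1404 and 1709 CPM and 2242, 2218 and 2384 CPM (log2 fold change 0.54, SE 0.07, adjusted p = 1.6e-07). The helicase DHX9 went from 285, 234 and 319.9 CPM to 425, 432 and 436 CPM (log2 fold change 0.62), and BLM from 18, 14.1 and 18.9 CPM to 23.8, 23.5 and 25.5 CPM (log2 fold change 0.51). These values did not overlap between the times. Among 38 homologous recombination and Fanconi genes, FANCM rose by 1.05 and RAD51B had a log2 fold change of -1.01, and neither was called without replicate 2 at 2 h. BRCA2 stood at 7.22, 7.13 and 7.37 CPM and 10.6, 9.64 and 8.11 CPM (log2 fold change 0.39, SE 0.11, adjusted p = 0.0045), under the fold threshold, and its gene overlaps ZAR1L. BRCA1 stood at 63.5, 53.8 and 64.7 CPM and 67.1, 64.7 and 66.8 CPM (adjusted p = 0.083). Of 47 DNA replication genes E2F2 fell by 1.36 on the log2 scale and none rose, and none of 45 mitotic genes was called (14 higher and 8 lower by adjusted p alone).

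Markers of the line itself were present at both times. Ovarian carcinoma markers summed to 7742 to 8693 CPM at 2 h and to 8043 to 8189 CPM at 6 h, and of 16 tested 6 fell and none rose. Keratins weighed heavily in this sum and did not move together. KRT8, under the fold threshold, stood at 1813 to 1915 CPM at 2 h and 2580 to 2630 CPM at 6 h, while KRT19 fell. PAX8, the Müllerian lineage factor, stood at 203, 192 and 203 CPM and 158, 151 and 163 CPM (log2 fold change -0.34), WT1 at 111, 106 and 114 CPM and 119, 120.1 and 126 CPM, and EPCAM at 528, 569 and 582 CPM and 570.4, 569 and 573 CPM. MUC16, which carries the CA-125 antigen, went from 158, 442 and 189.6 CPM to 50.9, 44.3 and 59.7 CPM. The high 2 h value was replicate 2 again, and the log2 fold change of MUC16 was -2.35 with it and -1.75 without it. The folate receptor FOLR1, KRT19, mesothelin (MSLN), CLDN3 and WFDC2 also fell, and KRT19 went from 1304, 1663 and 1174 CPM to 468, 472 and 517 CPM (log2 fold change -1.51, SE 0.13). Markers of other cells were low. Of 13 leukocyte markers 9 were at 0 counts in all 2 h libraries and 8 in all 6 h libraries, PTPRC, CD3E and MS4A1 among them, and the summed level of 74.9 to 84.4 CPM at 2 h and 70.5 to 80.1 CPM at 6 h was nearly all CD68. Fibroblast and endothelial markers summed to 6.94 to 9.20 CPM and 3.51 to 4.73 CPM, with DCN, CDH5 and TEK at 0. Of the 4 tested leukocyte markers CD14 and CSF1R fell, and of the 7 tested fibroblast and endothelial markers 3 fell, all at low levels. CSF1R was not called without replicate 2 at 2 h. The part of such cells in the results was not tested. SOX17 and MUC1, further ovarian markers, had at most 4 counts in any of these libraries.

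Keratins and cornified envelope genes had 8 of 34 lower and 1, KRT6A, higher (9 and 2 without replicate 2 at 2 h). KRT13, of stratified epithelia, went from 9.22, 18.6 and 7.61 CPM to 1.43, 0.946 and 1.32 CPM (log2 fold change -3.23, SE 0.61), with replicate 2 the highest at 2 h. The simple-epithelium keratins KRT7, KRT8 and KRT18 passed the adjusted p upward without the fold threshold, with 0.53, 0.47 and 0.52. KLK7, a protease that sheds skin cells, went from 239.6, 330.1 and 209 CPM to 61.2, 66.2 and 75 CPM (log2 fold change -1.94, SE 0.15), and of 9 tested kallikreins, a family looked at after KLK7 was seen, 5 fell and none rose. Epithelial adhesion genes had 2 of 29 lower, the tight junction proteins TJP3 and CLDN3, with log2 fold changes of -2.43 and -1.47. Mesenchymal genes moved both ways. FN1, fibronectin, rose from 62.2, 60.8 and 73 CPM to 189, 189.5 and 204 CPM (log2 fold change 1.57, SE 0.17, adjusted p = 2.0e-06), and CDH2, N-cadherin, rose from 0.667, 0.906 and 0.816 CPM to 1.79, 1.98 and 2.01 CPM, while 4 of 24 fell, S100A4, MMP2 and LOXL2 among them. In the list of collagens, laminins and integrins 11 of 52 fell and COL12A1 rose (9 and 2 without replicate 2 at 2 h, and up to 3 higher without replicate 3), and the laminin chain LAMA4 went from 157, 151 and 137 CPM to 32.5, 33.8 and 34.3 CPM (log2 fold change -2.15, SE 0.2).

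Calcium channels and calcium signalling genes had 12 of 51 lower and PLCB4, a phospholipase C, higher. ORAI3, a pore subunit of store-operated entry, went from 12.6, 16.6 and 10.01 CPM to 2.12, 2.14 and 2.6 CPM (log2 fold change -2.51, SE 0.18), and ATP2A3, a calcium pump of the endoplasmic reticulum, had a log2 fold change of -3.01 at under 3 CPM. Potassium channel genes, looked at after KCNF1 was seen, had 15 of 53 lower and 4 higher. Steroid receptors and estrogen targets had 6 of 21 lower and NR3C2, the mineralocorticoid receptor, higher (6 and 2 without replicate 2 at 2 h), and the 6 were CA12, GREB1, AGR2, PDZK1, PER1 and CTSD. CA12, a carbonic anhydrase, went from 11.2, 13 and 8.55 CPM to 0.739, 0.824 and 0.898 CPM (log2 fold change -3.73, SE 0.18), and CTSD, the lysosomal protease cathepsin D, from 778, 839 and 742 CPM to 308, 309 and 323 CPM (log2 fold change -1.33, SE 0.08). The receptor gene ESR1 itself stood at 119, 117 and 113 CPM and 104, 102 and 98.8 CPM (log2 fold change -0.2). PEO4 is the cisplatin-resistant line of its pair, and among 33 genes of platinum transport and glutathione 5 fell, or 3 without replicate 2 at 2 h, with ABCC3 going from 6.11, 6.79 and 5.28 CPM to 2.24, 1.92 and 2.22 CPM (log2 fold change -1.5), and the efflux pump ABCG2, at under 1 CPM, rose in a call that was lost without replicate 2 at 2 h.

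**Figure D3:**
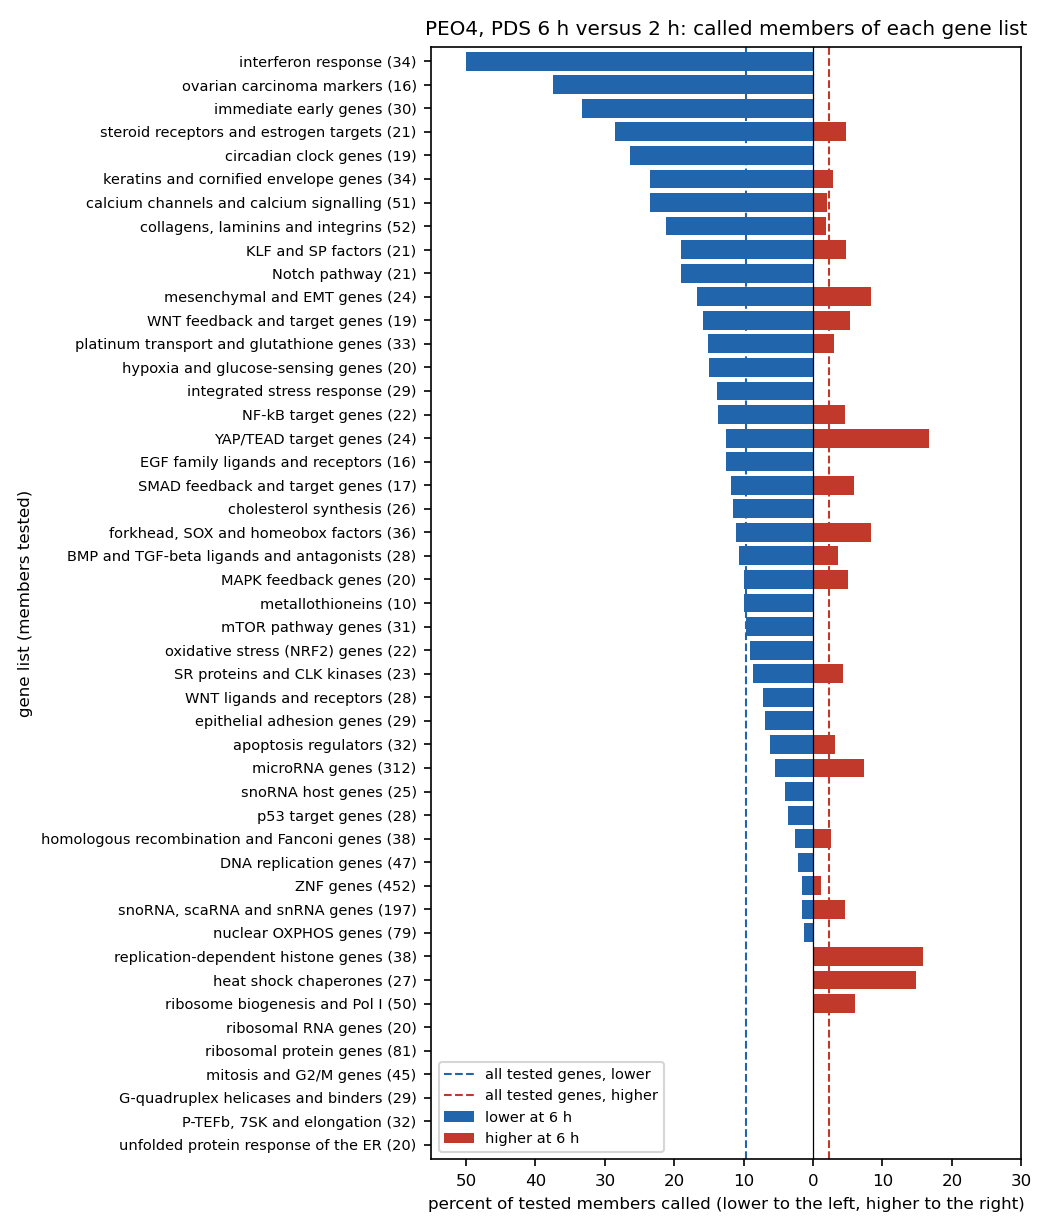
Percent of the tested members of each gene list that were called higher or lower at 6 h against 2 h of PDS in PEO4, with the percent over all tested genes (2.27% higher, 9.71% lower) as reference lines. Interferon genes (17 of 34 lower) stand far past the reference for lower, and heat shock chaperones (4 of 27) past that for higher.

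How often a gene was called went with its level and its base composition. Genes with at least 10 counts numbered 15878 ± 101 at 2 h and 15345 ± 191 at 6 h (SD, n = 3 each; exact permutation test, two-sided, p = 0.1, the smallest possible). With the tested genes split into 5 groups of equal size by mean log2 CPM, 22.4% fell in the lowest group and 15.5%, 6.02%, 3.00% and 1.67% in the next ones, while the share that rose went from 4.41% to 0.911%. The median log2 fold change went from -0.36 in the lowest group to 0.13 in the highest. By GC content of the mature message, in 5 groups of the protein-coding genes, 5.06% fell in the group with a median GC of 38.5% and 14.1% in that with a median of 62.2%. Among protein-coding genes with a mean log2 CPM of at least 3 the shares that fell were 1.35% and 6.84% in the groups of lowest and highest GC. The share that rose differed less, with 1.72% and 2.14% in the lowest and highest GC groups of all protein-coding genes. At a mean log2 CPM of at least 3 it was 1.09% and 1.81%. Of 349 protein-coding genes with a single exon 5.16% rose, against 1.85% of the others. The part of depth and library composition in these gradients was not tested.

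**Figure D4:**
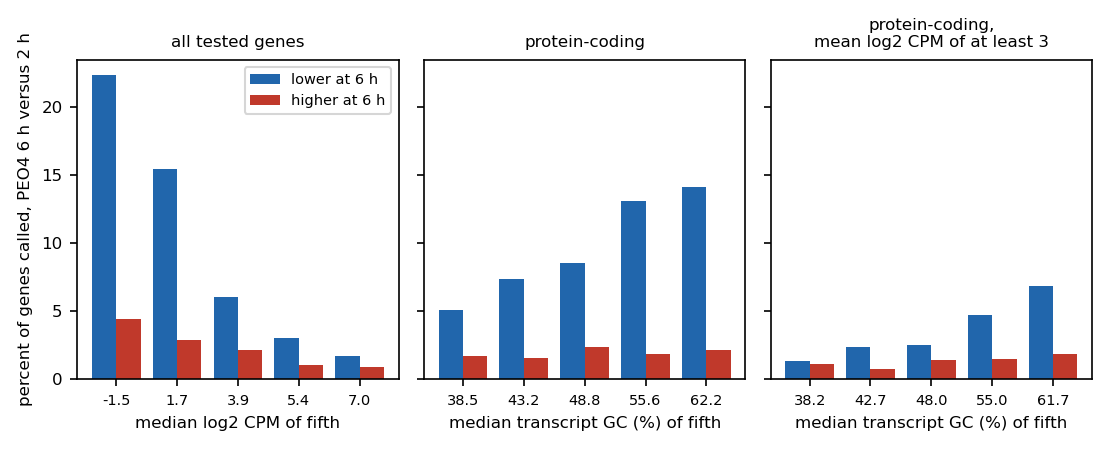
Percent of genes called higher and lower at 6 h against 2 h of PDS in PEO4, in 5 groups by mean log2 CPM (all 17020 tested genes) and in 5 groups by GC content of the message (protein-coding genes). The percent lower goes from 22.4% to 1.67% with rising level and from 5.06% to 14.1% with rising GC.

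Because PDS binds G4s, promoters were searched for at least 4 runs of 3 or more G, with 1 to 7 bases between runs, on either strand. Such runs were in the 300-base window of 2835 tested protein-coding genes and not in that of 5391. Of the genes with runs 2.12% rose and 9.24% fell, and of those without 1.65% rose and 8.05% fell. Among the 20 genes with the largest changes 10 had a window and 2 held runs, RFTN1, which rose, and ADAMTS2, which fell. Both are printed as the examples among those 20 genes, before the start and with the runs and the bases between them in capitals (G on the other strand appears as C).
RFTN1, chr3:16513700-16513949, minus strand: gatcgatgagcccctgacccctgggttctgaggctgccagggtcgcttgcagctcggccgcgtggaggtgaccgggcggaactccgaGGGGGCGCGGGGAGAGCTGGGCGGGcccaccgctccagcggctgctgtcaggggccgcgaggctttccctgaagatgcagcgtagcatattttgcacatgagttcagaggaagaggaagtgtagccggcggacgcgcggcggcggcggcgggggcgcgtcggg
ADAMTS2, chr5:179345462-179345711, minus strand: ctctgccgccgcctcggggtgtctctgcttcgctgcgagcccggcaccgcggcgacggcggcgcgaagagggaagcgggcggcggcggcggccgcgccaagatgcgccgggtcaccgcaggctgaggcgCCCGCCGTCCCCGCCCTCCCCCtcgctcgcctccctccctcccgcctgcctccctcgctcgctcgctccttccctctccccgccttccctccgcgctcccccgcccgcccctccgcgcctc
A run of letters is not a folded G4, and G4 maps were not used here. For the TATA box letters TATAAA, searched in the same way, 4.52% of 487 genes with them rose and 12.1% fell, against 1.64% and 8.23% of those without. The gap was smaller among genes with a mean log2 CPM of at least 3. There 1.67% of 240 genes with the letters rose and 3.75% fell. Of the 5473 without them, 1.005% rose and 2.997% fell.

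The same 2 to 6 h step in PEO1 BRCA+ cells changed far fewer genes. There 12 genes rose (0.0705%) and 17 fell (0.0999%), together 29 (0.17%), and by adjusted p alone 674 (3.96%) were higher and 508 (2.98%) lower, together 1182 (6.94%). The median size of a log2 fold change was 0.12 against 0.36 in PEO4. The difference of the 2 changes, tested as an interaction, was called upward (more positive in PEO4) for 319 genes (1.87%) and downward for 1193 (7.01%), together 1512 (8.88%). By adjusted p alone it was called for 7372 genes (43.3%), 3569 (21%) upward and 3803 (22.3%) downward. Of the 387 genes that rose in PEO4, the difference was called for 208 (53.7%), 256 (66.2%) had a positive log2 fold change in PEO1 BRCA+ and 4 rose there too. Of the 1652 that fell, the difference was called for 1031 (62.4%), 1065 (64.5%) had a negative value in PEO1 BRCA+ and 5 fell there too. Over all tested genes 50.2% had a positive value there and 49.6% a negative one. ID2, an inhibitor of basic helix-loop-helix factors, fell in both lines, from 142, 166 and 138 CPM to 61.4, 59.4 and 57.6 CPM in PEO4 and from a mean of 35.5 to 14.5 CPM in PEO1 BRCA+, with log2 fold changes of -1.32 and -1.29 (difference -0.04, SE 0.12, adjusted p = 0.84).

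Of the 20 genes with the largest changes in PEO4, the difference between the lines was called for 19. The genes were chosen for their change in PEO4, which is 1 side of that difference, so this count is a description and no separate evidence. NEGR1 had -0.35 in PEO1 BRCA+ against 2.85 in PEO4 (difference 3.2, SE 0.39, adjusted p = 2.8e-05). DHRS2 had 0.15 against -3.64 (difference -3.79, SE 0.34, adjusted p = 1.9e-06). The exception, PHF23, had 0.93 against 1.63, a difference of 0.7 (SE 0.09) that was under the fold threshold. Levels differed between the lines too, and DEPTOR, which stood at 118, 137 and 101 CPM in PEO4 at 2 h, had a mean of 4.5 CPM in PEO1 BRCA+. The list medians in PEO1 BRCA+ were 0.01 for heat shock chaperones, -0.22 for interferon genes, 0.02 for ribosome biogenesis and 0.0014 for ribosomal protein genes, and the difference was called lower in PEO4 for 9 of the 34 interferon genes and higher for 3 of the 27 chaperones. Both lines are BRCA2-positive by the labels and the design text, and which other difference between them goes with these values was not tested.

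**Figure D5:**
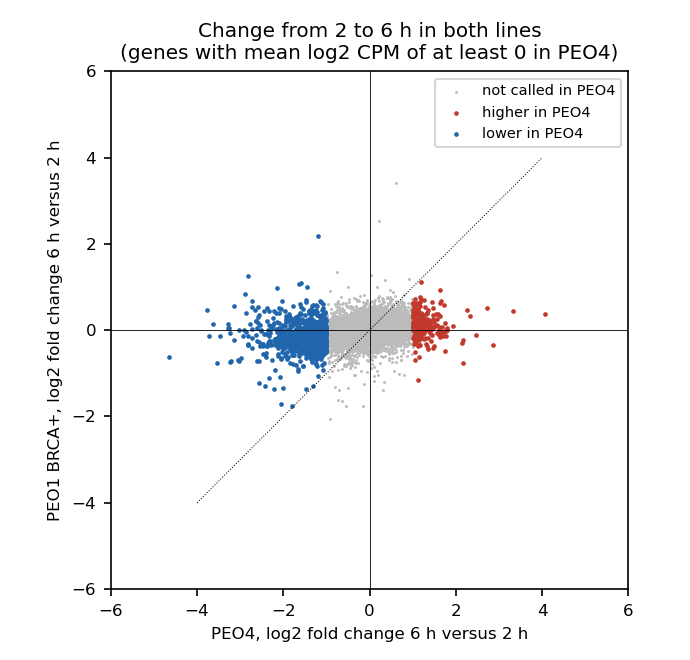
Log2 fold change from 2 to 6 h of PDS in PEO1 BRCA+ (vertical axis) against that in PEO4 (horizontal axis). Each point is 1 tested gene whose mean log2 CPM in the treated PEO4 libraries was not negative. Genes called higher or lower in PEO4 are in colour. The points spread along the PEO4 axis, with a median size over all tested genes of 0.36 there and 0.12 in PEO1 BRCA+.

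Each time was also set against untreated PEO4 cells, which the step from 2 to 6 h shares libraries with. At 2 h 1089 genes were higher (6.4%) and 1870 lower (11%) than in untreated cells, and at 6 h 1066 were higher (6.26%) and 2782 lower (16.3%). The untreated libraries were shallower, at 18699929 to 21893402 counts, and held 0.251% to 0.355% ribosomal RNA counts against 0.0179% to 0.0296% in the treated ones, so untreated levels are given as description.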

How the data were processed

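RNA of PEO4 and PEO1 BRCA+ cells was extracted on columns with DNase digestion and sequenced in paired ends after polyA enrichment. The authors deposited raw counts of reads on each gene as whole numbers. Their processing notes name FastQC, fastp, STAR, featureCounts and hg38. The annotation, the use of strand and the library kit of these samples are not given in the sources used here, so values of overlapping, antisense and near-identical genes are uncertain. Of the table, 1 line without readable counts was left out, and 4746 genes had 0 counts throughout.

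The test was edgeR's (4.0.16, in R 4.3.3). filterByExpr (minimum count 10, minimum total 15) chose the genes, TMM set the scale of each library, and 1 mean for each of the 6 conditions was fitted to all 18 libraries by the robust quasi-likelihood method (common dispersion 0.00502, 12 residual degrees of freedom). P-values were adjusted by Benjamini-Hochberg over all 17020 genes. Totals lay between 34119767 and 43713947 counts in the treated PEO4 libraries. Shares of counts were compared by exact permutation. A gene was at the floor where every library of a group had at most 3 counts. Such genes stayed in the fit and in the counts and medians (14 called higher and 112 lower with only the 2 h or only the 6 h libraries at the floor), but no fitted fold change is printed for them.

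Samples were grouped by their labels. The members, gene lists and tests were chosen with earlier results of these data known. The genes named are the 10 called genes with the largest rise and the 10 with the largest fall (mean log2 CPM of at least 3, no overlap between the times, a protein-coding or long non-coding symbol), the 3 largest differences between the lines each way, up to 3 called members of each list each way, the most abundant member where none was called, and BRCA2. All others were chosen after their values were seen, among them TCOF1 and the called members of a list beyond those 3, or stand as uncalled members of a list. Results for a few genes the rule names are not reported here. Other scalings, filters, thresholds, DESeq2 1.42.0, a replicate block and each library left out were tried. On simulated data of 16544 genes, 32 of 33 genes raised 4-fold and 29 of 31 lowered 4-fold were called in this comparison, and 29 of 34 and 28 of 33 at 2.5-fold, with 1 false call among 16349 unchanged genes. Promoter windows came from RefSeq (GRCh38.p14), matched by symbol for 14489 genes of the table, and GC content and length from GENCODE 44 canonical transcripts for 25904.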

Additional observations from a re-analysis of the deposited data

Results flagged for a closer look

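The step from 2 to 6 h of PDS differed between the lines, by the interaction term of the edgeR fit (adjusted p under 0.05 and a difference beyond 1), for 319 genes upward and 1193 downward in PEO4 relative to PEO1 BRCA+. Among the 20 genes with the largest changes in PEO4 the difference was called for 19, which their choice by the change in PEO4 favours. For those higher in PEO4 it was 3.2 for NEGR1, 1.99 for CHORDC1, 2.44 for NAV3, 1.79 for EPHB1, 1.76 for SEMA3C, 1.12 for DUSP7, 1.83 for KRT6A, 1.72 for RFTN1 and 1.71 for LRRN4, as differences of log2 fold changes. For those lower in PEO4 it was -3.79 for DHRS2, -3.33 for DEPTOR, -3.42 for IGFBP5, -2.52 for CCN2, -2.32 for GREB1, -2.8 for KRT15, -2.82 for KCNF1, -2.36 for ADAMTS2, -2.67 for SEMA3A and -2.76 for GBP1. CA9, a carbonic anhydrase induced by hypoxia, was called in opposite directions, at 0.75, 1.13 and 1.18 CPM and then 0.0477, 0.0915 and 0.12 CPM in PEO4 and at a mean of 2.15 and then 13.3 CPM in PEO1 BRCA+, a difference of -6.19.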

How the results depend on the processing

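Scaling by library totals, by DESeq2's own size factors or by upper quartiles gave 357, 388 and 339 genes higher and 1720, 1647 and 1773 lower in PEO4, DESeq2's Wald test 390 and 1615, no filter on low counts 432 and 1746, a minimum count of 50 268 and 1154, and fits of the 6 treated PEO4 libraries or all 12 treated libraries 344 and 1444 or 382 and 1554. Leaving out 1 library at a time gave 358 to 472 higher and 1370 to 1805 lower, the lowest without replicate 2 and the highest without replicate 3 of the 2 h group, and 281 to 402 upward and 911 to 1340 downward for the difference between the lines. Same-numbered samples did not deviate together (correlations -0.0125, -0.0161 and -0.0306), and with the replicate number as a block, 393 and 1630 genes were called in PEO4 and 319 and 1151 for the difference. No called gene changed sign under any of these settings. The fold threshold moved the counts most. By adjusted p alone, 4915 and 5322 genes were called in PEO4, 674 and 508 in PEO1 BRCA+, and 3569 and 3803 for the difference. At a fold beyond 1.5 they were 1527 and 2909, 74 and 105, and 1274 and 2229. The share of lower genes among the called in PEO4 was then 52.0% and 65.6%. The few calls in PEO1 BRCA+ moved more in proportion, to 7 and 9 with DESeq2, 6 and 6 at a minimum count of 50, 10 lower with the replicate block, and 5 to 13 higher and 7 to 24 lower without 1 library. These alternatives for PEO1 BRCA+ were chosen after seeing the data. Of 192 genes followed across these settings, 143 kept the same call under every setting. The cause of these shifts was not tested. At this depth 242 tested genes had at most 3 counts in every treated PEO4 library, of which 1 was called higher and 3 lower, and changes of 1.5-fold cannot be called at this fold threshold.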
